A study of Macaca mulatta with 33 samples.

Results

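The genes described here are 7 that mark blood vessel endothelium: CDH5, PECAM1, CLDN5, EMCN, ENG, TIE1 and VWF. They were chosen with earlier results of these data known. For each gene, the probe sets were taken by symbol, as all those of the array annotated to that gene alone. Their measured values were not used in this step. All 7 were found among the 14132 genes that the array names through such probe sets. They have 14 probe sets. CDH5 has MmugDNA.14995 and MmuSTS.3396, PECAM1 has MmugDNA.28182, MmuSTS.1106 and MmugDNA.20462, and CLDN5 has MmuSTS.3423. EMCN has MmugDNA.41909, MmugDNA.16107 and MmugDNA.16324, and ENG has MmuSTS.4135 and MmugDNA.40038. TIE1 has MmugDNA.33949, and VWF has MmuSTS.2906 and MmugDNA.8805. The one with the highest mean, given first here, leads its gene. All 14 exceeded the median of all deposited values in at least 4 arrays and were kept, among 28911 of 52766 probe sets.

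Endothelial cells line blood vessels and seal them with junctions, through which they control what passes between blood and tissue. The corpus luteum, the gland that forms from the ovulated follicle and makes progesterone, is among the most densely vascularised tissues, and luteal cells lie close to capillaries. Its vessels grow as the gland forms and are lost as it regresses, and luteinizing hormone and chorionic gonadotropin act on luteal cells, which release angiogenic factors.

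Whole corpora lutea of adult rhesus macaques were profiled on 33 Affymetrix Rhesus arrays to follow the rescue of the gland by human chorionic gonadotropin (hCG) and the part of progesterone in it. Day 15 tissue had 6 days of rising hCG doses begun on luteal day 9, either with the steroid synthesis inhibitor trilostane (TRL) and the synthetic progestin R5020 (4 arrays), with TRL (4 arrays) or with hCG alone (5 arrays). Day 10 tissue had 1 day of hCG with TRL and R5020, with TRL, or alone (4 arrays each). Untreated day 10 tissue (8 arrays) was the baseline. There was no untreated day 15 group, so days of hCG and luteal day cannot be told apart between the days. TRL blocks 3β-hydroxysteroid dehydrogenase, which converts pregnenolone to progesterone, and so also acts on steroids made beyond that step, while R5020 replaces progestin activity alone. The labels do not say which samples came from separate animals, so p-values measure only the spread between these samples.

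The deposited values are log2 intensities with array medians from 6.14 to 6.32. Each array was centred on its median, and a limma fit of all 33 arrays used group and array set as terms. An array set is the number 1, 2 or 3 in the array names. Only the untreated group holds arrays of both set 1 and set 2, with 4 of each. Levels below are log2 intensities on the scale of array set 1, and an adjusted p is limma's, Benjamini-Hochberg adjusted over all kept probe sets, with 0.05 as the threshold. Replicates 3 and 5 of day 15 hCG carry the same sample number and count as 1 sample in the printed means, but as 2 arrays in the fit, so fitted changes that involve this group differ slightly from differences of printed means. PECAM1, for example, averaged 10.66 over the 4 day 15 hCG samples and 10.62 over the 5 arrays. The fit with the pair averaged gave no call among the members either. The day 15 replicate 4 arrays of hCG + TRL and of hCG + TRL + R5020 were unusually alike, with a spread of differences over probe sets of 0.19 (SD), against a median of 0.48 over all 528 pairs of arrays. Day 10 hCG + TRL replicate 1 and hCG + TRL + R5020 replicate 3 were less alike, with a spread of 0.32. Member probe sets differed by up to 1.10 between them, against 0.69 in the day 15 pair. Among the tissue markers, the cholesterol transporter gene STAR was high, at 14.45 to 14.87 in all arrays. The luteal marker HSD3B2 was less even, with arrays from 10.5 to 14.1. It averaged 10.79 in day 15 hCG + TRL tissue, against 13.28 in untreated tissue (adjusted p = 3.44e-06, limma). It was also lower than untreated in day 15 hCG + TRL + R5020 tissue, at 11.25 (adjusted p = 0.000101), and with day 15 hCG alone, at 12.30 (adjusted p = 0.0427).

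All 7 genes were well measured in every group, and none of their 14 probe sets passed the threshold in any of 14 comparisons between groups (limma). The largest change of a leading probe set was the 0.53 by which TIE1 was lower in day 10 hCG + TRL tissue than in untreated tissue. This is a 1.44-fold difference, with an adjusted p of 0.0734, the smallest of all 196 member tests. No 95% confidence interval of the 98 tests of leading probe sets reached a change of 1, that is a 2-fold difference, and the bound farthest from 0 was -0.86. Of the 196 member tests, 16 had an unadjusted p under 0.05. A p that misses the threshold does not show equal levels, and the intervals state what size of change the arrays leave possible. In bulk tissue, fewer endothelial cells and less RNA per cell cannot be told apart.

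**Figure D1:**
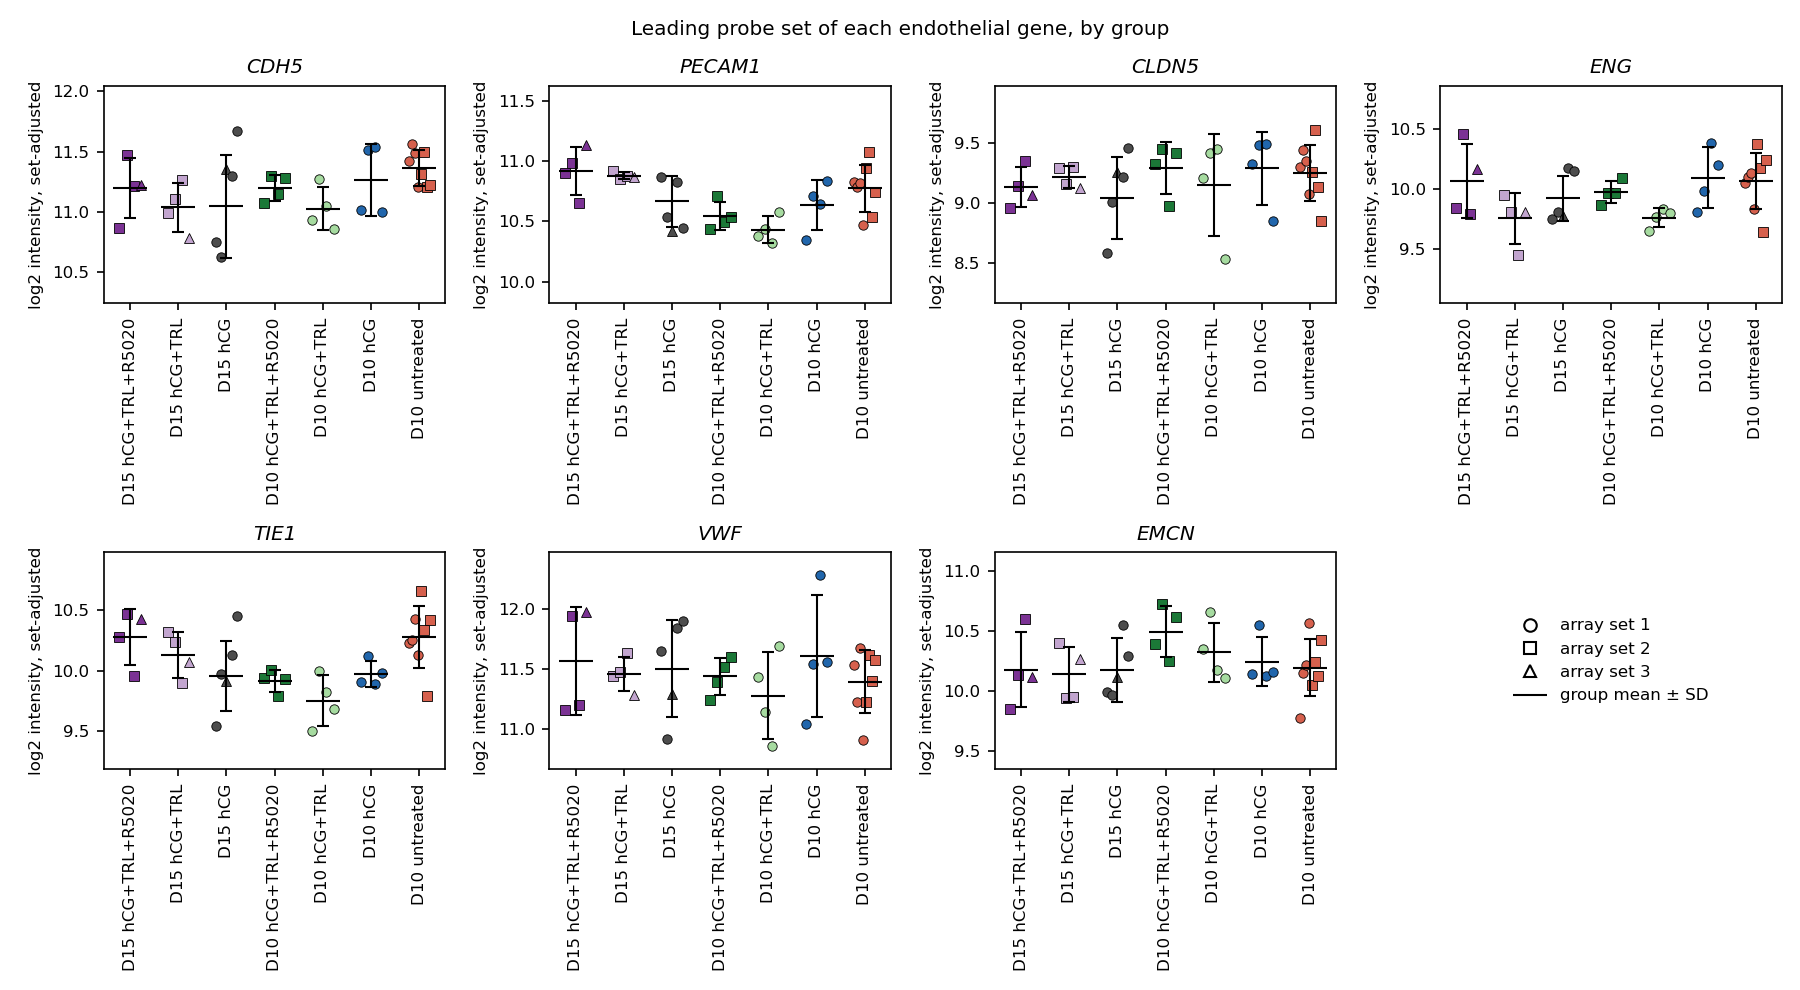
Log2 intensity of the leading probe set of each gene, adjusted to the scale of array set 1, for every array of the 7 groups (D15 and D10, luteal day 15 and 10). Each panel spans 1.8 log2 units; symbols mark the array set, and bars give the group mean and SD. Groups overlap in nearly all pairs, and the CDH5, PECAM1, VWF and TIE1 means are lowest in D10 hCG+TRL.

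CDH5 encodes VE-cadherin, the adhesion protein of endothelial adherens junctions. Its leading probe set averaged 11.20 ± 0.25 in day 15 hCG + TRL + R5020 tissue, 11.04 ± 0.20 with hCG + TRL and 11.05 ± 0.43 with hCG alone. At day 10 it averaged 11.20 ± 0.11 with hCG + TRL + R5020, 11.03 ± 0.18 with hCG + TRL and 11.27 ± 0.30 with hCG alone, against 11.37 ± 0.15 in untreated tissue (SD, n = 4 per treated group and 8 untreated). The untreated mean was the highest of the 7, yet no step between neighbouring group means exceeded 0.15, less than the residual SD of 0.26. The widest scatter was among day 15 hCG samples, where replicates 1 and 2 lay at 10.75 and 10.62, against 11.36, 11.30 and 11.67 for replicates 3, 4 and 5. The second CDH5 probe set had the same highest and lowest groups, untreated and day 10 hCG + TRL, with means of 9.57 and 9.25.

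PECAM1 encodes CD31, a junctional adhesion molecule of endothelium that platelets and monocytes also carry. In day 15 hCG + TRL tissue its leading probe set read 10.92, 10.85, 10.88 and 10.87, against 10.38, 10.44, 10.32 and 10.58 in day 10 hCG + TRL tissue. All 4 day 15 samples were above all 4 day 10 samples, and the same held for the other 2 PECAM1 probe sets, so that 3 of 14 member probe sets did not overlap between these groups. Groups did not overlap for 20.5% of all kept probe sets in this comparison. The leading probe set differed by 0.45 ± 0.17 (SE, adjusted p = 0.153, limma), and its 95% interval was 0.10 to 0.80.

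With R5020 added, PECAM1 read 10.90, 10.99, 10.65 and 11.13 at day 15, against 10.44, 10.71, 10.50 and 10.54 at day 10. The difference was 0.37 ± 0.13 (SE, adjusted p = 0.141, limma), and the groups overlapped through the third day 15 sample. One PECAM1 probe set, MmuSTS.1106, did not overlap here, with 10.42, 10.38, 10.39 and 10.63 at day 15, against 9.77, 10.31, 10.00 and 9.98 at day 10. In this comparison 12% of all kept probe sets did not overlap. Its difference of 0.44 ± 0.14 missed the threshold (adjusted p = 0.0854, limma), but passed it without untreated replicate 7 (0.43, adjusted p = 0.0427) or without day 10 hCG + TRL + R5020 replicate 2 (0.54, adjusted p = 0.0495). Under hCG alone the gene differed little between the days: the leading change was -0.01 ± 0.13 (SE), with an interval of -0.27 to 0.24.

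The TRL effect on PECAM1 had opposite signs on the days, 0.26 ± 0.15 at day 15 and -0.20 ± 0.13 at day 10 (log2 change against hCG alone, SE). The difference between these effects was 0.46 ± 0.20, with an unadjusted p of 0.0272 and an adjusted p of 1 (limma), so it did not pass. Under the other 2 probe sets the difference was 0.59 and 0.51. Without the 2 near-identical day 15 arrays the day 15 TRL effect was 0.12 (adjusted p = 0.906, limma), the day 15 minus day 10 difference under hCG + TRL 0.35 (adjusted p = 0.357), and that with R5020 added 0.30 (adjusted p = 0.314). The 2 hCG + TRL groups share no array set, day 10 lying in set 1 and day 15 in sets 2 and 3, so their contrast rests on the fitted array set term. Leaving that term out raised the leading difference between them to 0.75 (adjusted p = 0.00206), and without untreated replicate 7 MmuSTS.1106 passed with a difference of 0.58 (adjusted p = 0.0331).

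Few markers of monocytes and macrophages passed in these contrasts. Of 12 measured genes on that list of 15, 11 were higher in day 15 than in day 10 hCG + TRL tissue (median log2 difference 0.91), and 1, LYZ, passed the threshold. The LYZ call was lost under 20 of 42 alternatives, and the median was -0.04 with replicate number as a block, with 5 of 12 higher, and 1.48 without the 2 near-identical arrays. All 12 were higher with R5020 added (median 0.49, none passing), a median of 0.32 without day 15 hCG + TRL replicate 4 and 0.19 without the array set term. All 12 were higher at day 15 under hCG alone too (median 0.49, none passing), a median of 0.25 without that term. The PECAM1 change was -0.01 there. Of all kept probe sets 54.9% were higher at day 15 under hCG + TRL, 52.9% with R5020 added and 50.5% under hCG alone. The mean level of the list, relative to its mean over all arrays, was 0.04 to 1.11 in day 15 hCG + TRL samples, against -0.67 to 0.33 in day 10 hCG + TRL samples. Among its defining genes CD14, CD68 and CSF1R were measured, and CD163, ITGAM and FCGR3A were not analysed here. Of 10 platelet genes 5 were measured, 3 of them higher in the first contrast, with a median of 0.02 and none passing. The part of these cells in the PECAM1 values was not tested.

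CLDN5 encodes claudin-5, the main claudin of endothelial tight junctions. Its means ran from 9.04 ± 0.34 in day 15 hCG tissue to 9.29 ± 0.22 in day 10 hCG + TRL + R5020 tissue (SD, n = 4 each), the narrowest range of group means among the leading probe sets. The lowest samples were day 10 hCG + TRL replicate 4 at 8.53 and day 15 hCG replicate 1 at 8.58, followed by day 10 hCG replicate 4 and untreated replicate 9, both at 8.85. In the 14 comparisons its changes ran from -0.18 to 0.14, with 95% intervals inside -0.57 to 0.67.

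EMCN encodes endomucin, a sialomucin of the endothelial surface typical of capillaries and veins. Its leading probe set was highest with day 10 hCG + TRL + R5020, at 10.39, 10.72, 10.25 and 10.61, against 9.85, 10.14, 10.60 and 10.12 in day 15 tissue under the same agents. The groups overlapped, and the day 15 difference was -0.32 ± 0.18 (SE, adjusted p = 0.404, limma). The other 2 EMCN probe sets differed by -0.45 and -0.52, each at an unadjusted p under 0.05 (0.0432 and 0.0384) and an adjusted p of 0.299 and 0.281. EMCN and PECAM1 thus differed in opposite directions between the days under TRL with R5020, and neither passed.

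ENG encodes endoglin, a co-receptor that endothelial cells use for ligands of the TGF-β and BMP family. In day 10 tissue it read 9.65, 9.77, 9.83 and 9.81 with hCG + TRL, against 9.81, 9.98, 10.39 and 10.20 with hCG alone. The hCG + TRL samples lay close together and low, and overlapped the hCG group only through its replicate 1. The change was -0.33 ± 0.16 (SE, unadjusted p = 0.0443, adjusted p = 0.387, limma), with an interval of -0.65 to -0.01. With R5020 added the day 10 samples read 9.87, 9.97, 9.97 and 10.10, all above the 4 with hCG + TRL, where 6.47% of all kept probe sets did not overlap. The change with R5020 was 0.21 ± 0.21 (SE, adjusted p = 1, limma), and these groups share no array set.

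At day 15 ENG read 9.84, 10.46, 9.80 and 10.16 with hCG + TRL + R5020, against 9.95, 9.81, 9.45 and 9.81 with hCG + TRL. The groups overlapped, and the change of 0.31 ± 0.16 had an unadjusted p of 0.0576 and an adjusted p of 1 (limma). Without the 2 near-identical arrays it was 0.30. ENG under hCG + TRL was thus the lowest or the second lowest of the 7 group means on either day, at 9.76 on both, against 10.07 ± 0.23 in untreated tissue (SD, n = 8). The second ENG probe set lies near the median of all values, with a mean of 6.61, and did not share this order: it was lowest in untreated tissue.

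TIE1 encodes an orphan receptor tyrosine kinase of the angiopoietin system that pairs with TEK (TIE2). It was the member farthest from the untreated level. It read 9.50, 10.00, 9.83 and 9.68 in day 10 hCG + TRL tissue, against a lowest value of 9.79, a median of 10.30 and a highest of 10.66 in the 8 untreated samples. All 4 TRL samples were below 7 of the 8 untreated samples, and the groups overlapped only through untreated replicate 8, at 9.79, the lowest of its group. The change was -0.53 ± 0.16 (SE, 95% interval -0.86 to -0.20), with an adjusted p of 0.0734 (limma). It passed without untreated replicate 8 (-0.55, adjusted p = 0.0392) and without day 15 hCG replicate 1 (-0.55, adjusted p = 0.0407), and leaving out any other single array kept it above the threshold. Both groups are present in array set 1, where the change was -0.51 (adjusted p = 0.139).

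TIE1 was lower than untreated by smaller amounts in the other day 10 groups, -0.37 ± 0.16 with hCG + TRL + R5020 (adjusted p = 0.366) and -0.31 ± 0.16 with hCG alone (adjusted p = 0.295, limma, SE). At day 15 it averaged 10.28 ± 0.23 with hCG + TRL + R5020, 10.13 ± 0.19 with hCG + TRL and 9.96 ± 0.29 with hCG alone, against 10.28 ± 0.26 in untreated tissue (SD, n = 4 each and 8). The day 15 hCG samples spanned 9.54 to 10.45, wider than the 0.53 between the highest and lowest of the 7 group means. These comparisons share the 8 untreated samples and are not independent of each other.

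VWF encodes von Willebrand factor, the clotting protein that endothelium stores in Weibel-Palade bodies and that megakaryocytes also make. Its leading probe set averaged 11.57 ± 0.45 with day 15 hCG + TRL + R5020, 11.46 ± 0.14 with hCG + TRL and 11.50 ± 0.40 with hCG alone. At day 10 it averaged 11.44 ± 0.16, 11.28 ± 0.36 and 11.61 ± 0.51 in the same order of agents, against 11.40 ± 0.26 in untreated tissue (SD, n = 4 each and 8). It varied most within groups, with a residual SD of 0.36, higher than that of 84.4% of kept probe sets. Day 10 hCG samples alone spanned 11.05 to 12.28. The second VWF probe set averaged 6.29 and exceeded the median of all values in 21 of 33 arrays, so it carries little signal.

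**Figure D2:**
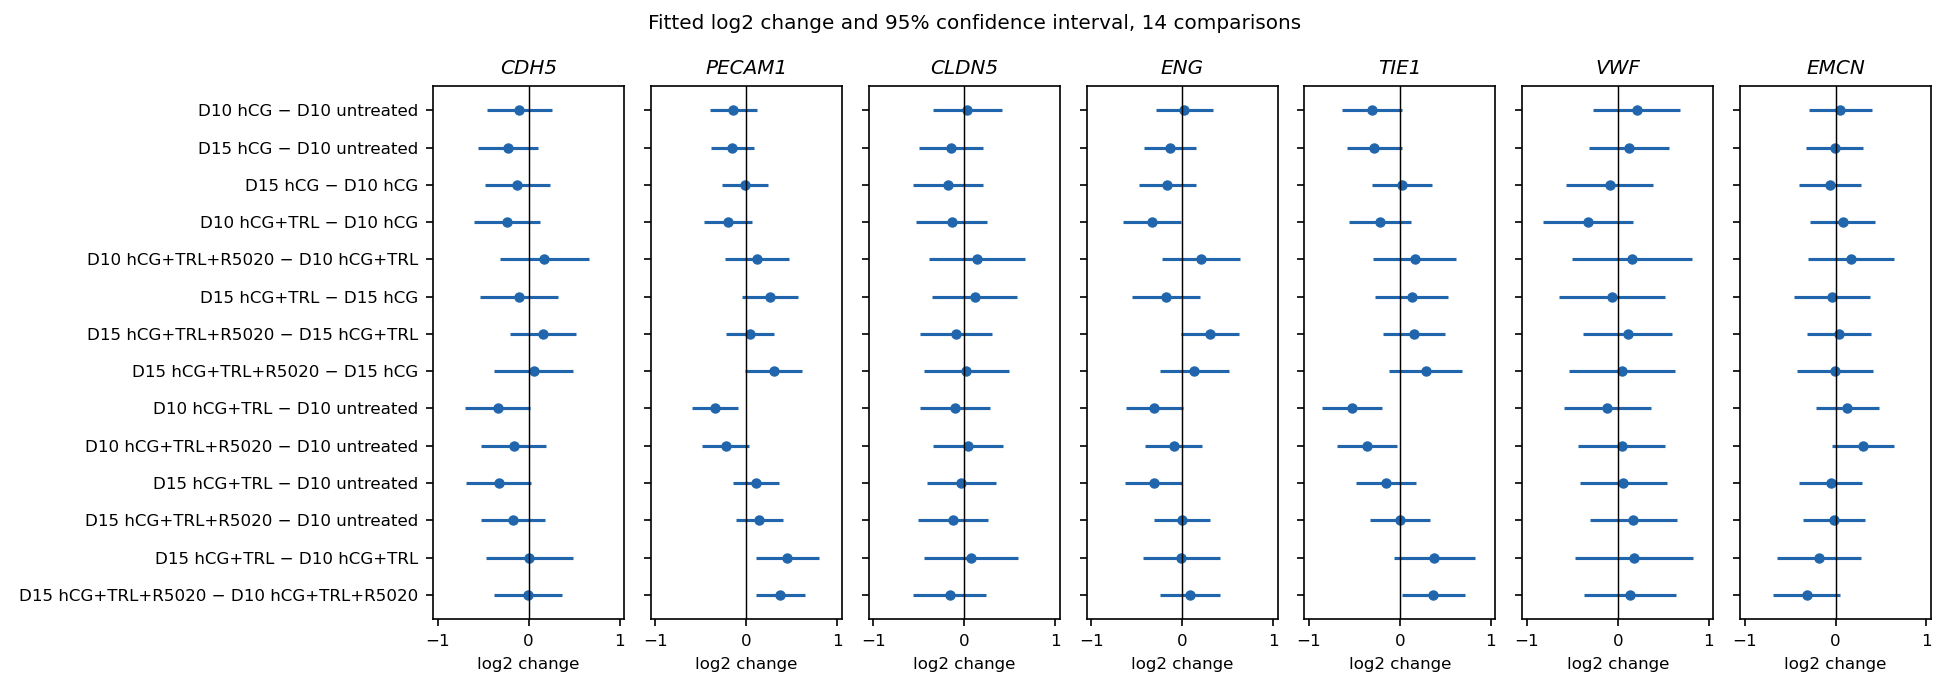
Fitted log2 change (points) and 95% confidence interval (lines) of the 7 leading probe sets in the 14 comparisons between groups; the group named first is higher to the right of 0. The interval farthest from 0 is that of TIE1 in D10 hCG+TRL against D10 untreated, from -0.86 to -0.20, and none reaches -1 or 1.

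hCG alone gave no call among the members. After 1 day of hCG, 0 of 14 member probe sets passed against untreated tissue, and 0 had an unadjusted p under 0.05, while 4.74% of all kept probe sets passed (limma). After 6 days 0 of 14 passed and 0 had an unadjusted p under 0.05, where 5.66% of all passed. Between 6 days and 1 day of hCG the counts were 0 and 0, where 6.71% of all passed. The median change over the 7 leading probe sets was 0.03 at 1 day, -0.15 at 6 days and -0.09 between the days, beside medians over all kept probe sets of 0.03, 0.02 and 0.00.

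TRL gave 0 of 14 calls against hCG alone at day 10 (1 at an unadjusted p under 0.05, ENG), where 0.00346% of all kept probe sets passed. At day 15 it gave 0 calls (1 unadjusted, PECAM1 MmuSTS.1106), where 0.0242% passed. At day 10, 6 of the 7 leading probe sets had a negative change with TRL and EMCN a positive one, with a median of -0.22. The median over all kept probe sets was -0.06 in that comparison, and 62.9% of them were below 0. At day 15, 4 of the 7 were negative, with a median of -0.04. Over all kept probe sets 57.1% were below 0 there, with a median of -0.03.

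Adding R5020 to TRL gave 0 of 14 calls at day 10 (0 unadjusted), where 0% of all kept probe sets passed, and 0 at day 15 (0 unadjusted), where 0% passed too. Against hCG alone, day 15 hCG + TRL + R5020 tissue had 0 calls (1 unadjusted, PECAM1 MmuSTS.1106), where 0% passed. All 7 leading changes were positive with R5020 at day 10, from 0.12 to 0.21, and 6 of 7 at day 15, from -0.09 to 0.31. The medians were 0.16 and 0.11, beside 0.03 and 0.01 over all kept probe sets, of which 57.1% and 53.2% were above 0. The 2 day 10 groups share no array set, so all 7 of their changes rest on the fitted array set term. The differences of the TRL and of the R5020 effect between the days gave 0 calls each (2 and 0 unadjusted), where 0% of all passed in either.

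Against untreated tissue, the groups with TRL had 0 calls at day 10 (3 unadjusted; 2.83% of all kept probe sets passed) and 0 at day 15 (1 unadjusted; 8.82%). With R5020 added the counts were 0 at day 10 (2 unadjusted; 1.23%) and 0 at day 15 (0 unadjusted; 4.18%). Between day 15 and day 10 they were 0 under TRL (2 unadjusted; 2.86%) and 0 under TRL with R5020 (5 unadjusted; 2.47%). The leading median against untreated tissue was -0.30 in day 10 hCG + TRL tissue, the farthest from 0 of the 14 comparisons, beside -0.04 over all kept probe sets. The groups compared did not overlap for the PECAM1 and ENG probe sets named above, and for 0 of 14 member probe sets in the other 11 comparisons. Against untreated tissue, groups did not overlap for 6.61% of all kept probe sets with day 15 hCG + TRL + R5020, 9.84% with hCG + TRL and 4.16% with hCG alone. At day 10 the shares were 3.6%, 4.58% and 5.51% under the same agents. They were 2.76% for day 15 hCG + TRL + R5020 against hCG + TRL, 3.42% for it against hCG alone and 5.7% for hCG + TRL against hCG alone. The share was 5.9% for hCG + TRL against hCG alone at day 10, and 8.85% for day 15 against day 10 under hCG alone.

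A test for any difference among the 7 groups called 15.4% of all kept probe sets and none of the 14 members (3 unadjusted). The nearest was PECAM1, with an adjusted p of 0.0658 for MmuSTS.1106 and 0.102 for the leading probe set, then TIE1 with 0.112 (limma).

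Unlike the treatments, the array set gave calls among the members. In the untreated group, VWF averaged 12.47 ± 0.18 in array set 2, against 11.34 ± 0.34 in set 1 (SD, n = 4 each), on values centred but not adjusted for the set. ENG averaged 10.70 ± 0.32 in set 2, against 10.03 ± 0.13 in set 1, and PECAM1 11.21 ± 0.23 against 10.72 ± 0.17. These 3 genes and CDH5 did not overlap between the sets, with 5 of the 14 member probe sets in all, where 13.4% of all kept probe sets did not overlap. The fit over all groups uses the same 8 untreated arrays, the only group in both sets, so its result is not independent of this split. In the fit over all groups, set 2 minus set 1 passed for 5 member probe sets: VWF (1.01, adjusted p = 0.00669), ENG (0.60, 0.0117), TIE1 (0.59, 0.0175) and 2 of PECAM1 (0.52 for MmuSTS.1106, 0.00969, and 0.39 for the leading one, 0.0374). It also passed for 1910 of all 28911 kept probe sets (6.61%), 1788 of them higher in set 2 (limma). EMCN moved least among the leading probe sets, at 0.13.

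**Figure D3:**
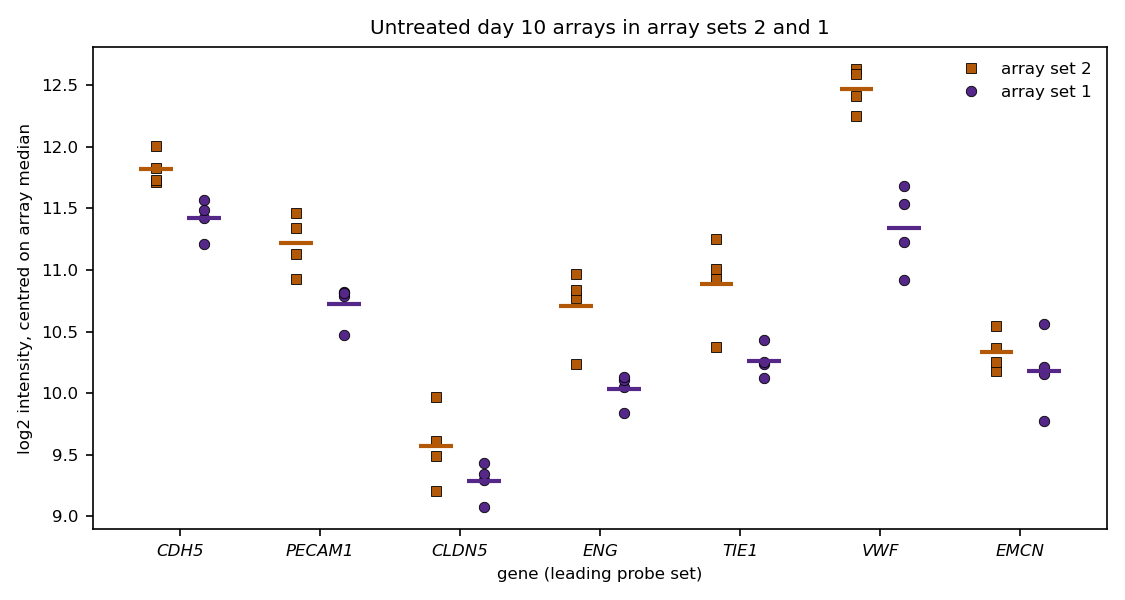
Log2 intensity, centred on each array's median and not adjusted for array set, of the 7 leading probe sets in the 8 untreated day 10 arrays, split by array set 2 (squares) and 1 (circles); lines are means of 4 arrays. VWF lies at 12.47 in set 2 and 11.34 in set 1, while the EMCN values of the sets overlap.

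Of a wider list of 54 endothelial markers and transcription factors, 38 were measured, and 3 passed in any of the 14 comparisons: ACKR1, SOX17 and HEY2. Against untreated tissue, 2 of 38 passed with day 10 hCG + TRL, 1 with day 10 hCG and 1 with day 15 hCG + TRL. Of all kept probe sets 2.83%, 4.74% and 8.82% passed in these comparisons. ACKR1 encodes the atypical chemokine receptor of venular endothelium and red cells. It read 8.52 to 9.06 in day 10 hCG + TRL tissue and 8.39 to 9.43 in day 10 hCG tissue, against 9.82 to 10.32 in untreated tissue, with no overlap. It fell by 1.32 with hCG + TRL (adjusted p = 0.00193) and by 1.11 with hCG alone (adjusted p = 0.00654, limma), and passed under all 43 alternatives. SOX17, an arterial endothelial transcription factor, fell by 0.64 with day 10 hCG + TRL (adjusted p = 0.0449), a call lost under 20 of 43 alternatives (largest adjusted p 0.139). HEY2, an arterial Notch target, fell by 0.78 with day 15 hCG + TRL (adjusted p = 0.0325), lost under 8 (largest adjusted p 0.702). No gene of the list passed as higher in the 14 comparisons, although without the array set term 12 did between day 15 and day 10 hCG + TRL, and RASIP1 did with R5020 against hCG + TRL at day 10. With array set as a random block RASIP1 passed between the days under hCG + TRL. MYCT1 passed between the days under hCG alone when day 10 hCG replicate 2 was left out.

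FABP4, a fatty acid binding protein of capillary endothelium that macrophages and adipocytes also make, had the list's largest difference and missed the threshold. It is named here because its values were seen. It read 9.68, 9.25, 9.69 and 8.33 in day 15 hCG + TRL tissue, against a lowest value of 6.00, a median of 7.13 and a highest of 8.02 in untreated tissue. The groups did not overlap, and the difference was 2.13 ± 0.73 (SE, adjusted p = 0.067, limma). It passed without day 10 hCG + TRL replicate 1, without day 10 hCG + TRL + R5020 replicate 3 and within array sets. Between day 15 hCG + TRL and untreated tissue 11 of the 12 macrophage genes were above 0, and 7 passed as higher. Of all kept probe sets 8.82% passed there, in either direction. The count of 7 became 1 to 9 when single arrays were left out, fewest without untreated replicate 6. The calls of AIF1, CD68, MSR1, C1QB, TYROBP and C1QC were also lost without the array set term and with array set as a random block. With replicate number as a block these calls and that of LYZ were lost. The median of the macrophage list was 0.84 and ran from -0.24 to 1.35 over the alternatives. The part of macrophages in the FABP4 values was not tested.

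Against untreated tissue, 33 of the 38 genes had a change below 0 in day 10 hCG + TRL tissue, with a median of -0.24. Of all kept probe sets 57.7% were below 0 there, with a median of -0.04, and 6 of the 7 leading members were. Of the 38 genes 2 passed, beside 2.83% of all. Most of the 38 were also below 0 against untreated tissue in the other groups. The count was 28 with day 10 hCG alone (44.3% of all kept probe sets) and 28 with day 10 hCG + TRL + R5020 (51.1%). At day 15 it was 31 with hCG + TRL (51.2%), 27 with hCG + TRL + R5020 (49.2%) and 22 with hCG alone (45%). Pericyte and smooth muscle markers were low too in day 10 hCG + TRL tissue against untreated tissue: all 9 measured of 15 were below 0, with a median of -0.29. The list level was -0.39 to 0.14 in day 10 hCG + TRL samples, against -0.03 to 0.31 in untreated samples. CSPG4, the pericyte proteoglycan NG2, fell by 0.62 (adjusted p = 0.0293, limma), a call lost under 8 of 43 alternatives, among them without untreated replicate 1, 3 or 4 or day 10 hCG + TRL replicate 1, 3 or 4 (largest adjusted p 0.117). All 9 were also below 0 with day 15 hCG + TRL (median -0.25), while 4 or 5 of 9 were above 0 in every other group. With day 15 hCG + TRL 3 passed as lower, where 8.82% of all kept probe sets passed. KCNJ8 fell by 0.76 and CSPG4 by 0.66, each lost under 2 of 43 alternatives, and TAGLN by 0.75, lost under 26. KCNJ8 also fell by 0.76 with day 15 hCG alone (adjusted p = 0.00145, limma), lost under 0. NOTCH3 and MYH11 were measured, and PDGFRB, RGS5 and ACTA2 were not analysed here. The part of these cells in the endothelial values was not tested. TIE1 values were most like those of JUP (r = 0.86), SOX17 (0.82) and TEK (0.82) over the 33 arrays. Arrays share RNA and array set, so these correlations of set-adjusted values describe likeness only.

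Of 13 junction partners of CDH5 and PECAM1, 8 were measured. Against untreated tissue, 2 passed with day 10 hCG + TRL (2.83% of all kept probe sets) and 2 with day 10 hCG (4.74%). With R5020 added at day 10, 1 passed (1.23%), and 1 between the days under hCG alone (6.71%). Which cells of the tissue carried these changes was not tested. AFDN, the scaffold afadin, fell by 0.51 with day 10 hCG + TRL (adjusted p = 0.0153) and by 0.52 with day 10 hCG (adjusted p = 0.0102, limma), the second call being lost without day 10 hCG replicate 3. It fell by 0.47 in day 10 hCG + TRL + R5020 tissue (adjusted p = 0.0433), a call lost under 21 of 43 alternatives. JUP (plakoglobin) fell by 0.59 with day 10 hCG + TRL (adjusted p = 0.0498, limma), a call lost under 31 of the 43 (largest adjusted p 0.155). TJP1, the scaffold ZO-1, fell by 0.62 with day 10 hCG against untreated tissue (adjusted p = 0.0281), lost under 6 (0.147), among them without untreated replicate 1, 2 or 3 or day 10 hCG replicate 3 or 4. It rose by 0.55 in day 15 hCG tissue against day 10 hCG tissue (adjusted p = 0.0405), lost under 12 (0.228). The other members of that list passed in none of the 14 comparisons.

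Of 20 symbols on a list drawn up around ENG and TIE1, related genes such as ANGPTL4 included, 12 were measured. Against untreated tissue, 1 passed as higher and 1 as lower with day 15 hCG + TRL (8.82% of all kept probe sets passed). At day 10, 1 passed with hCG + TRL (2.83%) and 1 with hCG (4.74%), and 1 between the days under hCG alone (6.71%). SMAD7, the inhibitory SMAD, fell by 0.60 with day 15 hCG + TRL (adjusted p = 0.0256) and by 0.73 with day 10 hCG + TRL (adjusted p = 0.0166, limma). TGFBR1, a TGF-β receptor, rose by 0.61 with day 15 hCG + TRL (adjusted p = 0.0134) and by 0.64 from 1 to 6 days of hCG (adjusted p = 0.0114). ANGPTL4 rose by 0.91 with day 10 hCG (adjusted p = 0.0169). The SMAD7 calls were lost under 7 alternatives at day 15, untreated replicate 6 or 7 or day 15 hCG + TRL replicate 3 left out among them (largest adjusted p 0.31), and under 3 at day 10, without untreated replicate 1 or hCG + TRL replicate 1 or 3 (0.0642). The TGFBR1 call with TRL was lost without day 15 hCG + TRL replicate 3 and with the replicate block (0.989), and that under hCG alone in 3 alternatives, including without day 10 hCG replicate 3 (0.0669). The ANGPTL4 call was lost without untreated replicate 4 or day 10 hCG replicate 3 or 4, and without the array set term (0.0592). These genes are expressed by many cell types of the gland.

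Within groups the members moved only loosely together. After removal of group and array set, the 21 pairs of leading probe sets had correlations from -0.18 to 0.72 with a median of 0.29 over 33 arrays. ENG and TIE1 (0.72) and CDH5 and CLDN5 (0.69) were the closest pairs, and PECAM1 and CLDN5 (-0.18) the most distant. Different probe sets of 1 gene ran from 0.29 to 0.90, with a median of 0.53. Those pairs include the dim second probe sets of VWF and ENG, so the ranges are not like for like.

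**Figure D4:**
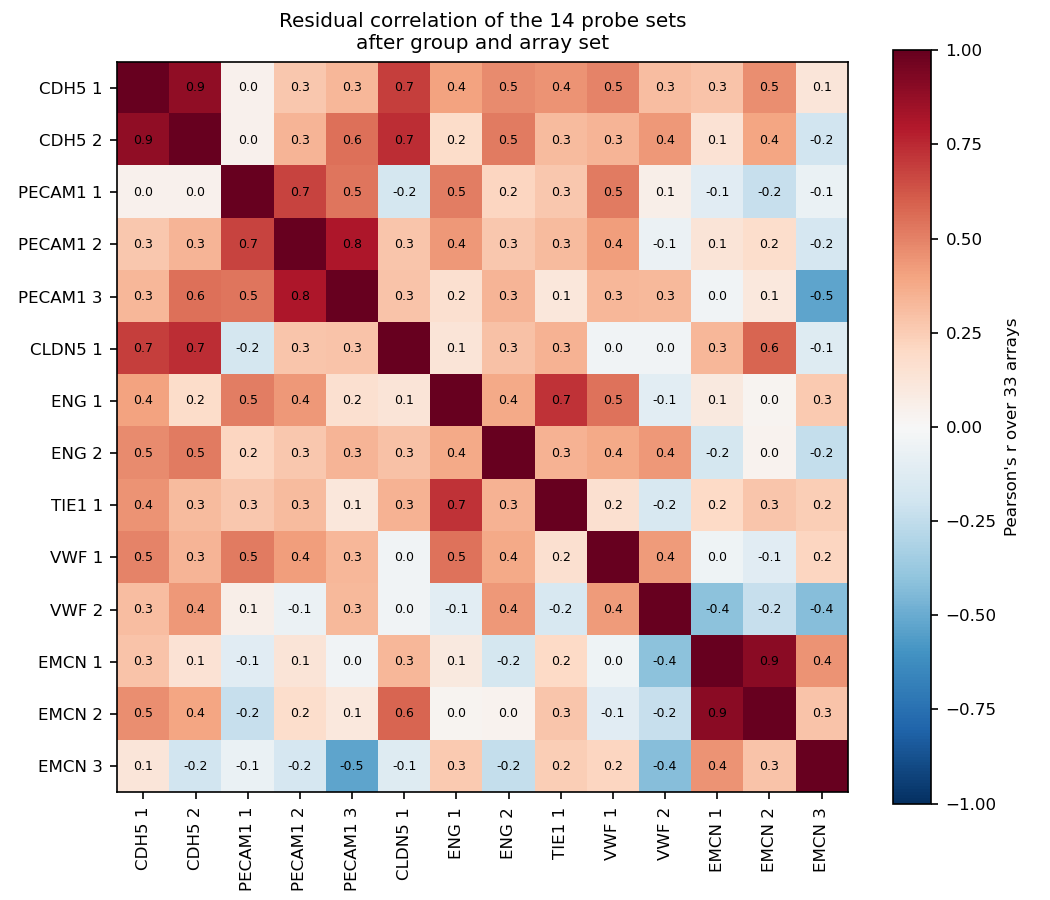
Pearson's r over 33 arrays between the 14 member probe sets after removal of group and array set terms, genes ordered as in the plot of values and probe sets numbered by mean within a gene. ENG 1 and TIE1 1 stand at 0.72, CDH5 1 and CLDN5 1 at 0.69, and the 2 brightest EMCN probe sets at 0.90.

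By the same measure of likeness, over named genes and set-adjusted values, CDH5 was closest to NID1 (0.79), MSN (0.79) and FHL3 (0.78), and ENG to MTOR (0.84), CASKIN2 (0.83) and SCARF2 (0.81). PECAM1 was closest to ESYT1 (0.76), RRM2B (0.73) and CLCN5 (0.72), and CLDN5 to MED20 (0.72), RHOJ (0.71) and TNFAIP1 (0.69). VWF was closest to PXN (0.69), GCN1 (0.68) and MTMR9 (0.68), and EMCN to RMDN2 (0.65), MYCN (0.64) and EHD3 (0.59). The genes most like the mean of the 7 standardised members were RASIP1 (0.86), PRKD2 (0.85), MMP2 (0.83), TMEM88 (0.82) and RAMP2 (0.81), of which RASIP1, TMEM88 and RAMP2 are on the endothelial list. That mean, in SD units, had its lowest group median in day 10 hCG + TRL samples, at -0.74 (-0.92 to -0.07), against 0.38 (-0.58 to 0.97) in untreated samples. The lowest single sample, at -1.08, was in the day 15 hCG group.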

How the data were processed

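Total RNA of luteal tissue was measured on 33 Affymetrix Rhesus arrays, a pair of which carry 1 sample number. The deposited log2 values run from 2.60 to 15.12; their normalization is not given in the sources used here, and the unit follows from the values. Probe sets were named by the platform's annotation. From 52865 probe sets, 99 controls were removed, and 28911 were kept because 4 or more arrays exceeded 6.19, the overall median: 17606 with 1 symbol, 240 with several and 11065 with none. Arrays were centred on their medians. One linear model took group and array set as fixed effects (limma 3.58.1, R 4.3.3; trended eBayes, 24 residual degrees of freedom, two-sided), adjusted by Benjamini-Hochberg within each comparison over all kept probe sets. In data simulated for day 10 hCG against untreated tissue (28911 probe sets, 200 changed), the fit called 98% of log2 changes of 2 and 85% of those of 1, with 9 false calls among 192. Smaller changes, such as those of the members, and other comparisons were not simulated, so these rates do not apply to them. The number of arrays limits the precision.

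The brightest kept probe set, by its mean over arrays, leads each gene. All member probe sets are named. From each context list, up to 3 genes that passed a comparison could be named, by adjusted p, and those of the endothelial, junction and ENG and TIE1 lists are. The 3 genes most like each member are given (5 for their mean). The members and lists were chosen with earlier results of these data known. The alternatives were quantile normalization, no centring, no filter, array set left out or as a random block (duplicateCorrelation, statmod 1.5.0), no mean-variance trend, comparisons within array sets, replicate number as a block, the day 15 hCG replicates 3 and 5 averaged, the 2 near-identical day 15 arrays left out, and each array left out in turn. No sequences are printed.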

Additional observations from a re-analysis of the deposited data

Results flagged for a closer look

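A single sample lay far from the other 3 of its group in 3 of 98 groups (14 probe sets in 7 groups) by Dixon's test at the 95% level, where chance alone sets apart about 1 group in 20. CDH5 MmuSTS.3396 read 9.01 in day 15 hCG + TRL + R5020 replicate 1, below the nearest value of 9.44. PECAM1 MmuSTS.1106 read 10.63 in day 15 hCG + TRL + R5020 replicate 4, above the nearest value of 10.42; this array is one of the 2 near-identical day 15 arrays. EMCN MmugDNA.41909, the leading probe set, read 10.55 in day 10 hCG replicate 2, above the nearest value of 10.16.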

How the results depend on the processing

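The count of member probe sets past the threshold was 0 in every comparison, and it stayed 0 under quantile normalization, no centring, no filter, no mean-variance trend, the fits within array sets, the averaged day 15 hCG replicates and the removal of the 2 near-identical day 15 arrays. It depended on the array set term: without it, 1 passed for day 10 hCG against untreated (TIE1), 1 for day 15 hCG against untreated (TIE1), 5 for day 10 hCG + TRL against untreated, 5 for day 15 against day 10 hCG + TRL, and 7 in the test of any difference. With array set as a random block the last 3 counts were 2, 2 and 3. Whether replicate numbers pair the samples was not settled. Correlations of same-numbered arrays ran from -0.38 to 0.51, with medians of -0.02, 0.02, 0.04 and 0.03 for replicates 1, 2, 3 and 4. Differently numbered arrays were not compared. With the replicate block, 1 passed for day 10 hCG + TRL against untreated (TIE1, -0.51, adjusted p = 0.0384, limma) and 1 in the test of any difference. Leaving out 1 array at a time gave counts from 0 to 1 for day 10 hCG + TRL against untreated, for day 15 against day 10 hCG + TRL and for the same days with R5020 (arrays named in the report), and from 0 to 2 in the test of any difference: 2 without untreated replicate 4, and 1 without untreated replicate 7 or 8, day 10 hCG replicate 1, day 10 hCG + TRL + R5020 replicate 2 or day 15 hCG replicate 4. Of 9548 member values under alternatives, 22 passed and 528 changed sign, none of the latter having passed. No value within array sets could be had for day 10 hCG + TRL + R5020 against hCG + TRL or for day 15 against day 10 hCG + TRL, which share none. Day 15 hCG + TRL, with or without R5020, shares only array set 3 with day 15 hCG, 1 array of each; in it PECAM1 differed by 0.45 with TRL and 0.71 with R5020 added, with no test. The cause of these changes was not tested. The SOX17 call was lost under quantile normalization, no centring, no filter, without the 2 near-identical arrays, and without any 1 of untreated replicates 1 to 4, the 4 day 10 hCG + TRL samples, replicates 1 and 2 of day 10 hCG, 3 and 4 of day 15 hCG, or 1 and 4 of either day 15 TRL group; that of HEY2 with the replicate block, within array sets, and without untreated replicate 6 or 9, day 15 hCG replicate 3 or day 15 hCG + TRL replicates 1 to 3.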
